A study of Homo sapiens with 6 samples.

Results

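The SWI/SNF genes described here are 10 subunits of the BAF and PBAF chromatin remodelling complexes: ARID1A, ARID1B, ARID2, SMARCA2, SMARCA4, SMARCB1, SMARCC1, SMARCD1, PBRM1 and BRD7. They were chosen by name, as listed BAF and PBAF genes, from the 61552 genes of the deposited tables. Earlier results of these data were known when they were chosen. All 10 were found, and all 10 were among the 15063 genes with enough counts to test. RNA-seq was run on NCI-H520 cells, an established human line of lung squamous cell carcinoma, labelled wild type and grown in RPMI-1640 with 15% serum. One group of 3 libraries was given PBS, the buffer control, and another group of 3 libraries was given cisplatin at 2 µM, both for 48 h. Cisplatin is a platinum compound whose adducts link DNA bases to each other. The series concerns SOX2 and drug resistance, and the question this comparison can address is how the drug changes RNA levels in the unmodified line. All libraries come from 1 cell line. Nothing in the labels says that they were grown as separate cultures, and the spread behind each p-value may therefore be technical.

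SWI/SNF complexes use the energy of ATP to slide or evict nucleosomes and so open chromatin at promoters and enhancers. Each complex holds 1 ATPase, either SMARCA4 (also called BRG1) or SMARCA2 (BRM), on a core that includes SMARCB1, SMARCC1 and SMARCD1. The BAF form carries ARID1A or ARID1B, while the PBAF form carries ARID2, PBRM1 and BRD7. Genes of these complexes are recurrently mutated in human cancers, lung cancers among them.

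The RNA of 6 of the 10 genes fell with cisplatin, and that of none rose. The 6 were ARID2, BRD7, ARID1A, ARID1B, PBRM1 and SMARCA4. ARID2 fell by 46.2%, BRD7 fell by 36.4% and SMARCA4 fell by 22.5%. SMARCA2, SMARCC1, SMARCB1 and SMARCD1 did not pass the test. Each gene was tested with the quasi-likelihood test of edgeR, p-values were adjusted over all 15063 genes by the method of Benjamini and Hochberg, and a gene was called at an adjusted p under 0.05. By the same rule 19.3% of all tested genes were lower and 18.9% were higher. All 10 log2 fold changes were negative, with a median of -0.38, where the median over all tested genes was 0.00. The median over 17 other tested subunits of these complexes was -0.04. Of the 10 genes, 6 lie in the longest of 5 groups by transcript length, where 40.6% of tested genes were lower. At an unadjusted p under 0.05 in edgeR, 7 of the 10 were lower and 0 were higher, against 24% and 23.5% of all tested genes. DESeq2 called 6 of the 10 lower and 0 higher, against 16.1% and 15.4% of all genes. Limma-voom also called 6 lower and 0 higher, against 19.1% and 19.2%. In CPM (counts scaled to the TMM-adjusted library size), every cisplatin library lay below every PBS library for 9 of the 10 genes, all but SMARCD1, against 24.5% of all tested genes. As these are bulk libraries scaled to a total, less RNA per cell and fewer cells expressing a gene cannot be told apart.

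**Figure D1:**
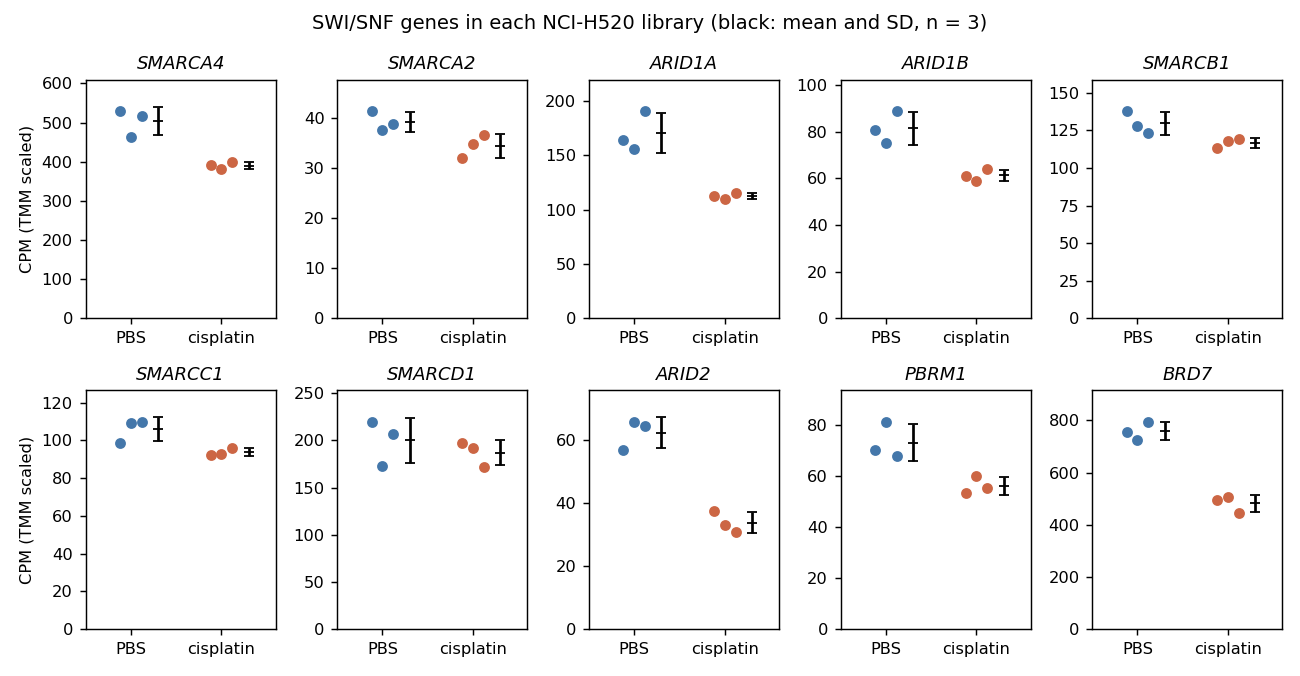
CPM of the 10 SWI/SNF genes in each library, 1 panel per gene with its own vertical axis from 0, PBS libraries beside cisplatin libraries, with the group mean and SD in black (n = 3). The groups are separate in every panel but SMARCD1, and the widest gaps in proportion are those of ARID2 and BRD7.

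Library totals ran from 9121180 to 16724285 expected counts, and both groups held shallow and deep libraries. The first principal component held 58.9% of the variance and separated the groups. Mitochondrial transcripts made up 4.15% to 6.05% of counts in PBS and 3.26% to 4.13% in cisplatin libraries, without overlap; their part in the results was not tested. Of 6 squamous markers, SOX2 (135 to 182 TPM), KRT5 (2.61 to 4.2 TPM) and KRT6A (0.95 to 36.3 TPM) had a mean of at least 1 TPM, while TP63, KRT14 and DSG3 were at 0.5 TPM or below in every library. TPM is the share of transcripts that a gene gives in a library, corrected for transcript length and set to a fixed total. The simple epithelial markers EPCAM, KRT8 and KRT18 were all expressed, and their sum ran from 1570 to 1830 TPM in PBS and from 1820 to 1850 TPM in cisplatin libraries. The sum of 4 immune markers stayed at or below 0.21 TPM, and that of 3 endothelial markers at or below 0.4 TPM. Of 5 fibroblast markers only COL1A1 reached a mean of 1 TPM, and the summed level was 4.26 to 5.89 TPM in PBS and 6.24 to 6.71 TPM in cisplatin libraries. The sum of 3 lung adenocarcinoma markers, nearly all of it NKX2-1, was 1.8 to 2.88 TPM in PBS and 3.71 to 4.0 TPM in cisplatin libraries. The part of these last lists in the results was not tested.

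The 2 ATPases are the motors of the complex. SMARCA4 (ENSG00000127616, chromosome 19, 10960825 to 11079426, plus strand, GRCh38) was read at 530, 463 and 518 CPM in the PBS libraries and at 391, 381 and 398 CPM in the cisplatin libraries. The highest cisplatin library stayed below the lowest PBS library. Its log2 fold change was -0.37 ± 0.07 (SE), with an adjusted p of 0.00233 in edgeR, which is 0.775 of the PBS level (95% interval 0.693 to 0.866). SMARCA2 (ENSG00000080503, chromosome 9, 1980290 to 2193624, plus strand) was read at 41.4, 37.5 and 38.8 CPM in PBS and at 31.9, 34.7 and 36.6 CPM after cisplatin. Those groups were also separate, though their nearest libraries, at 37.5 and 36.6 CPM, were close. The difference did not pass the test, at -0.18 ± 0.09 with an adjusted p of 0.122, and its interval on the fold scale ran from 0.771 to 1.01. With the deposited effective length as an offset, SMARCA2 was at -0.43 (adjusted p = 0.0613 in edgeR) and SMARCA4 at -0.29 (0.0185). With limma on log2(TPM + 1) they were at -0.49 (adjusted p = 0.0672) and -0.37 (0.028). With the trend with transcript length corrected for, they were at -0.14 and -0.22. Which of the 2 genes fell more thus depended on the fit. SMARCA2 rested on the fewest reads of the pair, 320 to 609 counts per library, where SMARCA4 had 3928 to 7423.

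SMARCA4 stood far above SMARCA2 when levels were set on the same per-length scale. This scale takes all transcripts of a gene together. SMARCA2 was assigned 2332 to 3324 bases per library, where its longest transcript has 7061 bases, so shorter transcripts made up part of its level. In TPM the ratio of SMARCA4 to SMARCA2 was 6.68, 8.46 and 7.90 in the PBS libraries and 9.66, 7.73 and 8.11 after cisplatin. The 2 groups overlapped, with means of 7.68 ± 0.913 and 8.50 ± 1.02 (SD, n = 3 each). The log2 ratio differed by 0.15 between groups (exact two-sided permutation p = 0.5, adjusted p = 0.5 over the 3 ratios computed, in a design whose smallest possible p is 0.1). On expected counts that were not scaled by length, the same difference was -0.18, so its direction depended on the scale.

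SMARCB1, SMARCC1 and SMARCD1, the core subunits among the 10, did not pass the test. SMARCB1 did once the trend with transcript length was corrected for (-0.25, adjusted p = 0.0108 in edgeR). With the deposited effective length as an offset it did not (-0.15, adjusted p = 0.203 in edgeR). SMARCB1 (ENSG00000099956, chromosome 22, 23786931 to 23838008, plus strand) is a small core protein that contacts the nucleosome and whose gene is lost in rhabdoid tumours. It was read at 138, 128 and 123 CPM in PBS and at 113, 118 and 119 CPM after cisplatin. The groups were separate, yet the change was small, -0.15 ± 0.07 with an adjusted p of 0.13 in edgeR. SMARCC1 (ENSG00000173473, chromosome 3, 47585272 to 47782106, minus strand), a scaffold on which the core assembles, was read at 98.7, 109 and 110 CPM in PBS and at 92.4, 92.6 and 96.2 CPM after cisplatin. Again no libraries overlapped, and the change was -0.17 ± 0.07 with an adjusted p of 0.0787. SMARCD1 (ENSG00000066117, chromosome 12, 50084972 to 50100712, plus strand), which links the complex to transcription factors, was read at 220, 173 and 207 CPM in PBS and at 197, 192 and 172 CPM after cisplatin. Here the groups overlapped, and the change was -0.10 ± 0.09 with an adjusted p of 0.443. The 95% intervals of their levels after cisplatin ran from 0.793 to 0.99 of the PBS level for SMARCC1, from 0.809 to 1.01 for SMARCB1 and from 0.812 to 1.08 for SMARCD1.

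The 2 BAF subunits with an AT-rich interaction domain both fell. ARID1A (ENSG00000117713, chromosome 1, 26693236 to 26782110, plus strand), a subunit that binds DNA and is among the most often mutated chromatin genes in cancer, was read at 164, 156 and 191 CPM in PBS. After cisplatin it was read at 113, 110 and 115 CPM, so the treated libraries lay close together and well below the controls. The log2 fold change was -0.60 ± 0.08 with an adjusted p of 2.5e-04 in edgeR, so the level fell by 34.0% (fold 0.66, 95% interval 0.582 to 0.749). ARID1B (ENSG00000049618, chromosome 6, 156776020 to 157210779, plus strand), its paralogue, which takes the same place in the complex, was read at 80.6, 75.0 and 89.0 CPM in PBS and at 61.2, 59.0 and 63.9 CPM after cisplatin. It fell by 24.7%, a log2 fold change of -0.41 ± 0.08 at an adjusted p of 0.00259. The ratio of ARID1A to ARID1B in TPM was 1.76, 1.69 and 1.78 in PBS and 1.62, 1.38 and 1.50 after cisplatin. ARID1A was the higher of the pair in every library, and the ratio was lower in all 3 cisplatin libraries. The difference was -0.22 on the log2 scale (exact two-sided permutation p = 0.1, adjusted p = 0.15, where 0.1 is the smallest p that 3 against 3 allows).

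All 3 PBAF subunits fell, though PBRM1 did not pass once the trend with transcript length was corrected for (-0.16, adjusted p = 0.166 in edgeR). PBRM1 did pass with the deposited effective length as an offset (-0.6, adjusted p = 0.00173 in edgeR). It also passed with limma on log2(TPM + 1) (-0.65, adjusted p = 0.00934). ARID2 (ENSG00000189079, chromosome 12, 45729665 to 45908040, plus strand), the PBAF counterpart of ARID1A, was read at 56.9, 66.0 and 64.5 CPM in PBS and at 37.4, 33.1 and 31.0 CPM after cisplatin. ARID2 fell by 46.2%, a log2 fold change of -0.89 ± 0.10 at an adjusted p of 4.1e-05 in edgeR (fold 0.538, 95% interval 0.466 to 0.621). PBRM1 (ENSG00000163939, chromosome 3, 52545352 to 52685917, minus strand), a subunit with several bromodomains that read acetylated histones, was read at 70.1, 81.3 and 67.6 CPM in PBS and at 53.1, 59.9 and 55.3 CPM after cisplatin. It fell by 23.3%, a log2 fold change of -0.38 ± 0.09 at an adjusted p of 0.00576. BRD7 (ENSG00000166164, chromosome 16, 50313487 to 50368934, minus strand), a bromodomain subunit also known as a partner of p53, was read at 757, 725 and 796 CPM in PBS. After cisplatin it was read at 495, 508 and 445 CPM. The highest cisplatin library lay well below the lowest PBS library. BRD7 fell by 36.4%, a log2 fold change of -0.65 ± 0.08 at an adjusted p of 7.9e-05 (fold 0.636, 95% interval 0.566 to 0.714), on 4967 to 11419 counts per library.

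Sequences of the 250 bases before the RefSeq start (GRCh38.p14) were at hand for 8 of the 10 genes. The 2 shown belong to BRD7, the gene with the highest level, and ARID1A, the larger fall of the BAF pair, and were chosen after the values were seen. Capitals mark a GC box (GGGCGG on either strand), the site that SP1-type factors bind. Each is printed 5′ to 3′ on the strand of its gene, and neither overlaps an annotated exon in GENCODE 29.
BRD7, chr16:50368989-50369238, minus strand: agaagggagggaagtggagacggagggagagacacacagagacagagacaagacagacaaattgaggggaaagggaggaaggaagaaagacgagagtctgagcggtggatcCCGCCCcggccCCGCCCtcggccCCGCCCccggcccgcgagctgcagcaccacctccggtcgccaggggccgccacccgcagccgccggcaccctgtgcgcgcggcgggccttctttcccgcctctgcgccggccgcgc
ARID1A, chr1:26695765-26696014, plus strand: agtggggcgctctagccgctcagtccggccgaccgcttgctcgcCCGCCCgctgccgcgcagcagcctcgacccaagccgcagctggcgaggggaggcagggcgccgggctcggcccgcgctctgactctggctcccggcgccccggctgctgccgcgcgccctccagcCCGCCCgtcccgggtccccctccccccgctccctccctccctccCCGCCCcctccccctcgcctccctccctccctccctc
Both windows are rich in G and C, 70.8% for BRD7 and 80.4% for ARID1A, where the median of 35116 such windows was 58.0%. They hold 26 and 30 CpG pairs, where that median was 11. Each holds 3 GC boxes, a motif found in 42.6% of all windows, and neither holds TATAAA (10.7% of all windows), CCAAT (32.0%) or CCGGAA, the ETS core (14.5%), on either strand. The 2 windows do not stand for all members. Windows of the others ran from 38.8% G and C with 0 GC boxes (ARID1B) to 83.6% with 6 (PBRM1). The SMARCA2 windows that are also free of exons held 40.0% and 46.0% G and C, 0 and 1 CpG pairs and 0 GC boxes, and the first held TATAAA. A match or its absence describes these letters only. The ARID1A window lies inside the span of the GENCODE gene, between exons of a transcript that starts further upstream.

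Levels were compared between genes in TPM. In the PBS libraries BRD7 stood highest, at 352, 340 and 439 TPM (by mean TPM over all 6 libraries, above 97.2% of tested genes). SMARCA4 followed at 145, 122 and 152 TPM, 2.7-fold lower and without overlap. SMARCB1 came next at 111, 95.6 and 107 TPM, and SMARCD1 at 91.6, 72.8 and 106 TPM, whose range overlapped that of SMARCB1. ARID1A was then separate at 33.1, 27.8 and 45.6 TPM. ARID1B, SMARCC1, SMARCA2 and PBRM1 formed a run of neighbours with overlapping ranges, at means of 20.3 ± 4.77, 19.7 ± 2.76, 18.4 ± 3.67 and 17.5 ± 0.821 TPM (SD, n = 3). ARID2 was lowest and separate, at 8.84, 9.62 and 11.8 TPM (by mean TPM over all 6 libraries, above 44.2% of tested genes). Of the 3 PBAF subunits among the 10, BRD7 thus held the highest level of the 10 and ARID2 the lowest. After cisplatin, the means were 220 ± 17.1 TPM for BRD7, 107 ± 0.44 for SMARCA4, 88.2 ± 0.837 for SMARCB1, 72.9 ± 9.48 for SMARCD1 and 22.9 ± 1.29 for ARID1A. The lower 5 genes stood at 16.2 ± 0.352 TPM for SMARCC1, 15.3 ± 1.25 for ARID1B, 12.7 ± 1.41 for SMARCA2, 10.8 ± 0.649 for PBRM1 and 5.83 ± 2.65 for ARID2. In TPM the ranges of the 2 groups overlapped for ARID1B (16.5 to 25.7 in PBS, 14.3 to 16.7 after cisplatin), ARID2 and SMARCD1, and for the other 7 genes every cisplatin library was below every PBS library, against 24.8% of all tested genes. The summed TPM of ARID2, PBRM1 and BRD7 over that of ARID1A and ARID1B was 7.28, 8.29 and 6.58 in PBS and 6.45, 6.12 and 6.0 after cisplatin. Without BRD7, which made up most of the sum, the ratio was 0.508 ± 0.0919 in PBS and 0.435 ± 0.0514 after cisplatin. The log2 difference between groups was -0.25 with BRD7, -0.21 without it and -0.11 with it on expected counts, and it is given as a description.

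Across all tested genes the change with cisplatin followed the length of the transcript, and most of the 10 genes are long. Genes were ranked by the mean transcript length in the deposited tables and cut into 5 groups of like size. In the group of shortest genes, of 153 to 1382 bases, the median log2 fold change was 0.197, with 7.4% of genes called lower and 31.2% called higher. In the group of longest genes, from 3961 bases up, the median was -0.238, with 40.6% called lower and 6.44% called higher. ARID2 (6986 bases), SMARCC1 (6229), ARID1A (5525), PBRM1 (5261), ARID1B (4625) and SMARCA4 (4171) lie in that longest group. Of these 6, 5 were called lower, and SMARCC1 was not. SMARCA2 (2911 bases) and SMARCD1 (2874 bases) lie in the next longest group, BRD7 (2567 bases) in the middle group and SMARCB1 (1692 bases) in the second shortest. What made long transcripts lower was not tested.

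**Figure D2:**
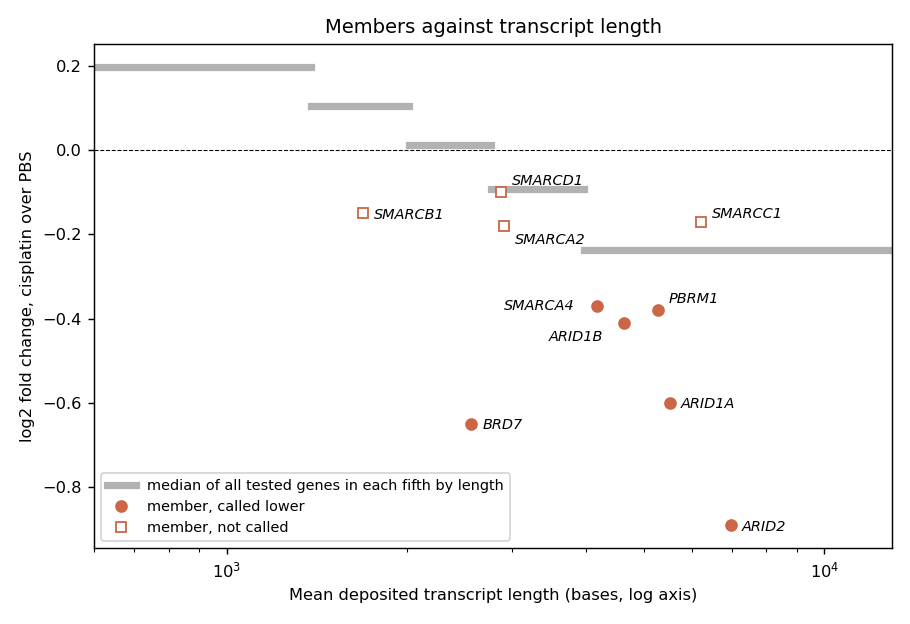
Log2 fold change (cisplatin over PBS) against the mean deposited transcript length in bases on a log axis. Horizontal lines are the medians of the 5 length groups of tested genes, which go from 0.197 for the shortest to -0.238 for the longest, and labelled points are the 10 SWI/SNF genes, with BRD7 and ARID2 furthest below the line of their group.

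A second fit took the length trend out of each library before the test, with a smooth curve of log counts on transcript length. After this length correction the medians of the 5 length groups lay between -0.013 and 0.003, and 16.7% of all tested genes were called lower and 17.1% higher. Again 6 of the 10 SWI/SNF genes were called lower and 0 higher, 5 of them in both fits. PBRM1 no longer passed (-0.16, adjusted p = 0.166 in edgeR), and SMARCB1 did (-0.25, adjusted p = 0.0108). BRD7 was the same size as before, -0.65 with an adjusted p of 2.0e-05. ARID2 was reduced to -0.59 (adjusted p = 3.4e-04), ARID1A to -0.36 (0.00272), ARID1B to -0.23 (0.0375) and SMARCA4 to -0.22 (0.025). SMARCA2 stayed uncalled at -0.14 (adjusted p = 0.22), as did SMARCD1 at -0.06 (0.607). SMARCC1 turned to 0.10 (0.28). The median of the 10 was -0.23, where that of all tested genes was -0.01, and 9 of 10 were negative.

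**Figure D3:**
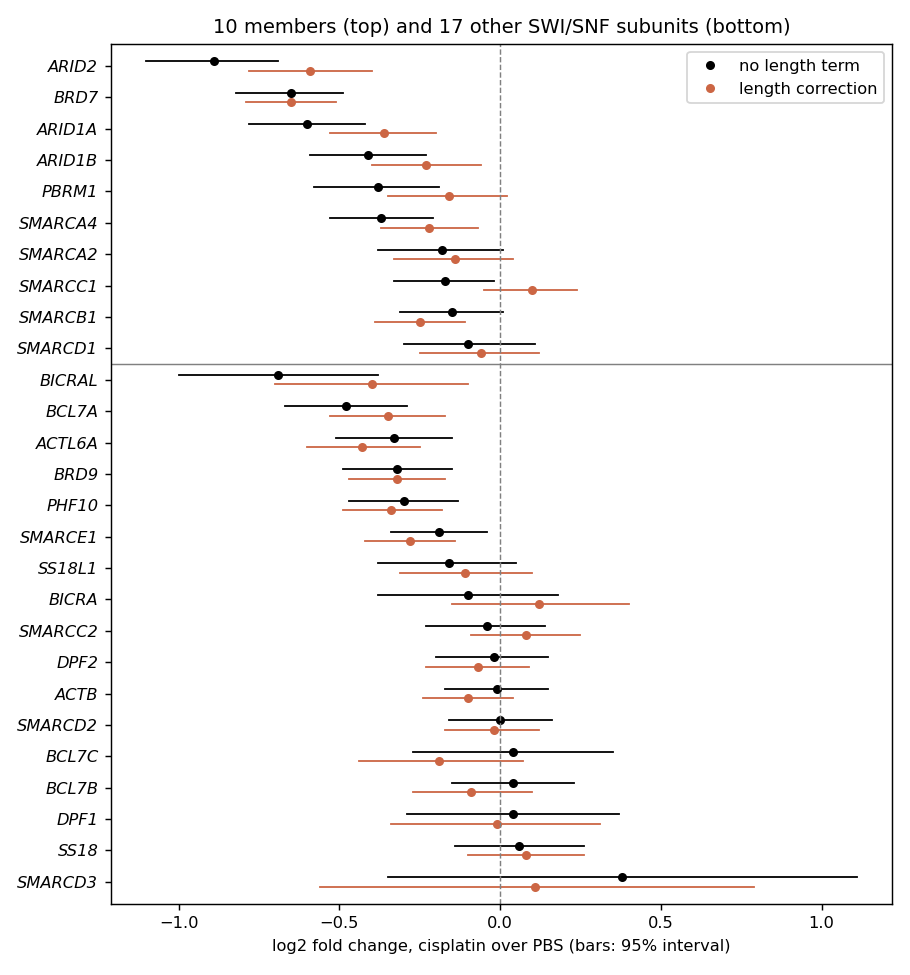
Log2 fold changes (cisplatin over PBS) with 95% intervals for the 10 SWI/SNF genes and the 17 other tested subunits, without the length correction in black and with it in orange. BRD7 keeps its place at -0.65, ARID2 moves from -0.89 to -0.59, and SMARCC1 crosses 0.

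The deposited tables also give a transcript length per gene and library, which moves only when the estimated mix of isoforms moves. No gene's length was called changed between the groups by limma (0 of 12873 genes with varying lengths, percent called 0), and 1436 genes, 2 of them members, had an unadjusted p under 0.05. With PBS replicate 2 left out, 9 genes were called, 0 of them members. The 2 members with a low unadjusted p were PBRM1 and SMARCD1. PBRM1 was assigned 4677, 5180 and 4763 bases in PBS and 5667, 5657 and 5624 bases after cisplatin. All 3 cisplatin values lay above the PBS values and close together, a log2 difference of 0.21 ± 0.04 with a limma adjusted p of 0.241. SMARCD1 was assigned 2842, 2776 and 2694 bases in PBS and 2840, 3024 and 3070 bases after cisplatin, with ranges that overlapped narrowly and a limma adjusted p of 0.446. SMARCA4 was assigned 4159, 4227 and 4447 bases in PBS and 4129, 4008 and 4054 bases after cisplatin, without overlap, with a limma adjusted p of 0.492. Groups without overlap in length were found in 18.4% of the 12873 genes and in 2 of the 10 members.

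ARID2 had a cisplatin library that stood apart in length. Its lengths were 7060, 7376 and 6934 bases in PBS and 4707, 8075 and 7765 bases after cisplatin, so cisplatin replicate 1 was assigned a far shorter mix than any other library. Its ARID2 level in TPM, 8.88, fell inside the PBS range of 8.84 to 11.8, while the other cisplatin libraries were at 4.40 and 4.20 TPM. In CPM the same library, at 37.4, was below all PBS libraries. With limma on log2(TPM + 1) ARID2 changed by -0.76 with an adjusted p of 0.0599, and with cisplatin replicate 1 left out by -1.05 (adjusted p = 0.0153). That library was left out after its ARID2 value was seen to be the highest of its group, so the larger fall follows from the choice. GENCODE 29 lists 9 transcripts of ARID2.

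**Figure D4:**
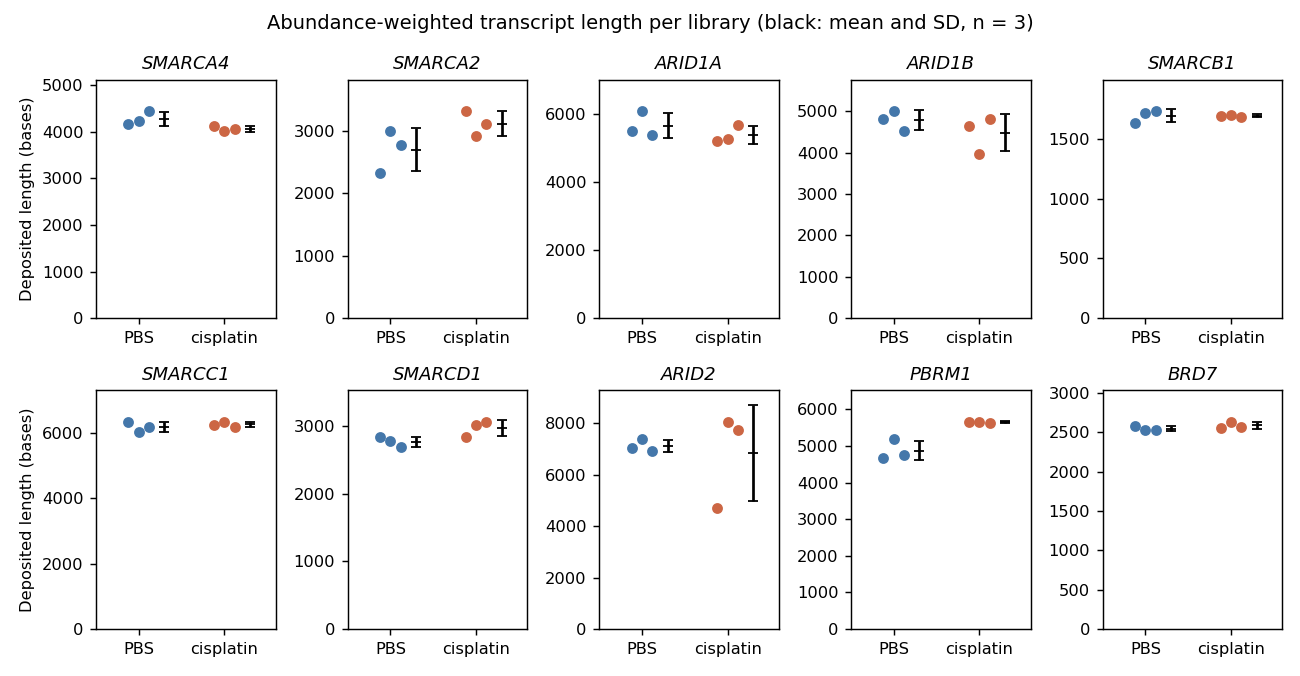
Transcript length in bases deposited for each of the 10 genes in each library, PBS beside cisplatin. PBRM1 is longer in all 3 cisplatin libraries (5624 to 5667 bases against 4677 to 5180), and ARID2 has a single low cisplatin library at 4707 bases.

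A list of 19 other subunits of BAF, PBAF and the smaller GBAF (non-canonical) form was read in the same fit. Of these, 17 were tested, 6 were lower, 0 were higher and 11 did not pass, with a median of -0.04, beside 19.3% lower and 18.9% higher among all tested genes. ACTL6B, the neuronal actin-like subunit, and DPF3 were too low to test. BICRAL, a GBAF scaffold, was lower by -0.69 ± 0.14 on the log2 scale (adjusted p = 0.00278 in edgeR), and BRD9, the bromodomain subunit of GBAF, by -0.32 ± 0.08 (0.00704). With limma on log2(TPM + 1), BICRAL (adjusted p = 0.0504) and BRD9 (0.107) did not pass. BRD9 did not pass with the effective length offset either (adjusted p = 0.0645 in edgeR). PHF10, which occurs in PBAF, was lower by -0.30 ± 0.08 (0.00876), and its call was lost without cisplatin replicate 1 (adjusted p = 0.0613). BCL7A, a subunit near the ATPase, was lower by -0.48 ± 0.09 (0.0013), and ACTL6A, an actin-like protein bound to the ATPase, by -0.33 ± 0.08 (0.00843). SMARCE1, a core subunit with a DNA-binding HMG box, was lower by -0.19 ± 0.07 (0.0461). That last call was lost when any of 5 of the 6 libraries was left out, at adjusted p of 0.1 and 0.0866 without PBS replicates 1 and 3 and of 0.134, 0.198 and 0.0716 without cisplatin replicates 1, 2 and 3. The 6 called subunits were the same 6 after the length correction, where the median of the 17 was -0.1. When edgeR tested against a 1.2-fold change (glmTreat), only BICRAL (adjusted p = 0.0157) and BCL7A (0.0254) of the 6 passed. SMARCC2, SMARCD2, SMARCD3, ACTB, DPF1, DPF2, SS18, SS18L1, BCL7B, BCL7C and BICRA did not pass.

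Some of the 10 genes share bases with a gene on the other strand, and whether the counting used strand is not given in the sources used here. BRD7 shares 42.3% of its exonic bases (3593 bases) with ADCY7, an adenylate cyclase, and SMARCB1 shares 17.7% (2923 bases) with DERL3. Reads in those bases cannot be assigned with certainty to either gene. ADCY7 was read at 74.7 ± 13.7 CPM in PBS and 38.6 ± 3.51 CPM after cisplatin, so it also fell (-0.95 ± 0.13, adjusted p = 1.7e-04 in edgeR). With the counts of both genes added together, a sum chosen after the data were seen, the log2 fold change of BRD7 and ADCY7 was -0.68. As each of them was lower, this sum bears on the size of the change and gives no support to the call of BRD7. The sum of SMARCB1 and DERL3 did not pass (adjusted p = 0.179). PBRM1 shares 1.51% of its exonic bases with UQCC5.

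The surroundings of BRD7 on chromosome 16 held genes that moved both ways. Within 500 kb on each side 14 genes were tested, of which 7, BRD7 included, were lower and 2 were higher, where 19.3% and 18.9% of all tested genes were. The window was chosen after the fall of BRD7 and the values of its neighbours were seen, so its counts only describe it. LINC02178, a long noncoding RNA on the same strand whose start lies 26.2 kb from that of BRD7, was higher, at 44.0 ± 2.07 TPM in PBS and 117 ± 9.45 TPM after cisplatin (log2 fold change 1.66 ± 0.19, adjusted p = 5.5e-05 in edgeR). That level rested on few reads, 3.54 ± 0.608 CPM in PBS and 11.0 ± 1.98 after cisplatin, where BRD7 had 759 and 483 CPM. NKD1, an antagonist of Wnt signalling that starts 179 kb away, was lower, at 241 ± 36.3 and 111 ± 7.32 TPM (-0.95 ± 0.08, 7.6e-06), and its change was -0.45 after the length correction (adjusted p = 5.7e-04). CYLD, a deubiquitinase that restrains NF-kB and starts 373 kb away, was higher, at 4.55 ± 0.711 and 7.21 ± 0.465 TPM (0.76 ± 0.10, 1.6e-04). HEATR3 (0.04 ± 0.09, 0.749), TENT4B (-0.22 ± 0.19, 0.394), CNEP1R1 (-0.01 ± 0.13, 0.939) and NOD2 (0.31 ± 0.20, 0.226) did not pass. The other 4 lower genes are unnamed transcripts around NKD1, of which 3 are annotated as antisense. Most of these 4 lie within the span of NKD1. As the use of strand is not given, reads may be shared with it, and the lower genes of the window may not be separate.

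**Figure D5:**
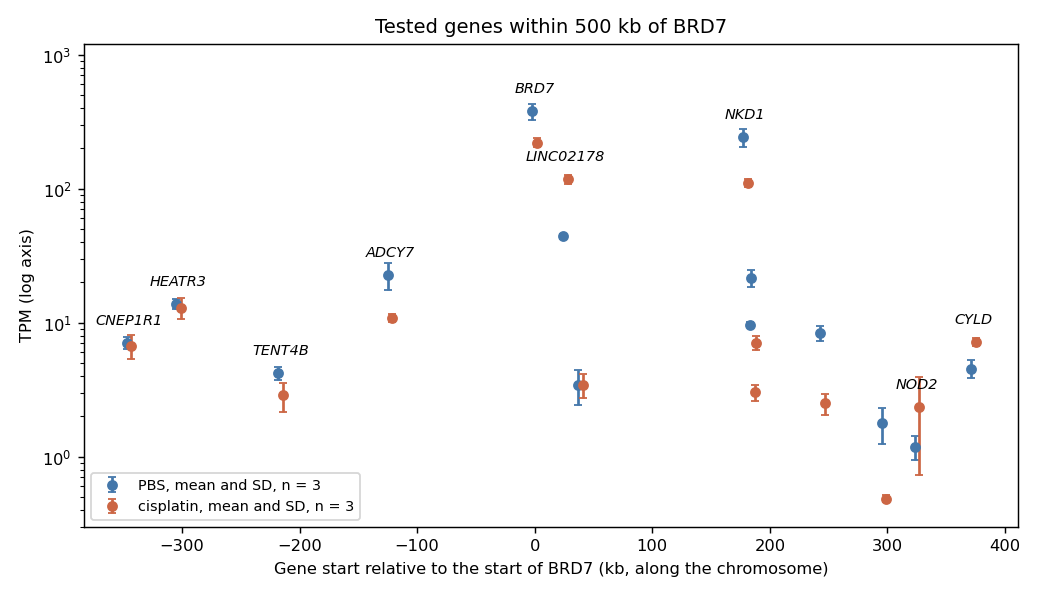
TPM on a log axis (mean and SD, n = 3) of the 14 tested genes within 500 kb of BRD7 in PBS (blue) and cisplatin (orange) libraries, by the distance in kb between their start and that of BRD7. BRD7 and NKD1 stand highest in PBS and are lower after cisplatin, while LINC02178, between them, goes from 44.0 to 117 TPM, on only 3.54 and 11.0 CPM.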

How the data were processed

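The authors deposited 1 table per library with the columns of an RSEM gene table, per the file headers: expected counts (estimated, not normalized), TPM and FPKM values (scaled by transcript length and depth), and lengths in bases. STAR 2.7.9 and GRCh38 were used, per the submitters' processing notes. Not given in the sources used here: the quantifier's version, its annotation release and its use of strand. Symbols matched 61399 of 61552 genes, and GENCODE 29, on the same build, gave positions for 58352.

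Expected counts were rounded and tested with edgeR 4.0.16 (R 4.3.3) after filterByExpr (count minimum 10, total 15) and TMM scaling. Standard errors are quasi-likelihood ones, and the 95% intervals include the spread between libraries. Deposited lengths were tested with limma 3.58.1 on log2 bases. The length correction used a loess per library (span 0.5). Alternatives were limma on log2(TPM + 1), limma-voom, DESeq2 1.42.0, a stricter filter (50 counts in 3 samples), other scalings and each library left out. Within groups, replicate libraries differed beyond sampling noise, so none was counted as a copy. The code was tested on simulated counts.

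The members and gene lists were chosen with earlier results of these data known. All members are named whatever their values, as are the called other subunits and, of each other family, up to 3 called genes in each direction with the smallest adjusted p. The window around BRD7 falls outside that rule.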

Additional observations from a re-analysis of the deposited data

How the results depend on the processing

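The count of 6 lower SWI/SNF genes was also found under other scalings and filters, DESeq2, limma-voom, the length correction (with PBRM1 exchanged for SMARCB1) and each library left out. It was 5 with the deposited effective length as an offset, 4 with limma on log2(TPM + 1) and 3 when glmTreat tested against a 1.2-fold change. BRD7 passed in 19 of 19 alternatives, the sum with ADCY7 among them, which gives its call no support, and ARID1A in 18 of 18. Against 1.2-fold, ARID1B (-0.41, adjusted p = 0.0746), PBRM1 (-0.38, 0.132) and SMARCA4 (-0.37, 0.116) did not pass. With log2(TPM + 1), ARID1B (-0.37, 0.145) and ARID2 (-0.76, 0.0599) did not pass, nor did ARID1B with the effective length offset (-0.31, 0.0737). With the length correction the values were -0.16 for PBRM1 (0.166), -0.25 for SMARCB1 (0.0108) and 0.10 for SMARCC1 (0.28), which reversed. SMARCA2, SMARCC1 and SMARCD1 passed in none of their 18 alternatives, and SMARCB1 passed in 2 of 19, both with the length correction. The counts over all genes were 1653 lower and 1208 higher with log2(TPM + 1) and 1230 lower and 1359 higher against 1.2-fold, and those of the other subunits were 3 and 2 lower. Of the 20 calls of other subunits lost over all alternatives, 13 were of SMARCE1. The ratio of SMARCA4 to SMARCA2 reversed to -0.18 on expected counts. What caused these shifts was not tested, beyond the stricter threshold that a test against 1.2-fold sets by construction. In the lengths, 0 members were called under every alternative.

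The replicate numbers are shared by the groups, but same-numbered libraries deviated together only weakly, with correlations of 0.0658, 0.123 and -0.076. Such correlations cannot show whether the libraries were set up as pairs, so the replicate number was a block only in an alternative fit. With the replicate block 6 members and 5 other subunits were lower, SMARCE1 being lost (adjusted p = 0.0536), and 2966 genes in all were lower and 2853 higher. With the block and the length correction together, chosen after the data were seen, the values were -0.16 for PBRM1 (0.117), -0.25 for SMARCB1 (0.013) and 0.10 for SMARCC1 (0.265).

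ARID2 had a larger fall than BRD7 without a length term (-0.89 against -0.65). Its fall was also larger with the effective length offset (-0.74 against -0.68), but not with the length correction (-0.59 against -0.65). With log2(TPM + 1) the values were -0.76 for ARID2 and -0.77 for BRD7. In PBS, ARID2 lay at 8.84 to 11.8 TPM and BRD7 at 340 to 439 TPM. The added 1 shrinks a change more at low levels, so the log2(TPM + 1) values cannot order these genes.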

Other observations

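Genes of 3 other families of chromatin regulators were read in the same fit, beside the 6 of 10 SWI/SNF genes that were lower and the 19.3% of all tested genes that were lower and 18.9% that were higher. Of 12 tested ISWI remodelling genes, 4 were lower and 2 were higher, with a median of -0.17. BAZ1B (-0.50, adjusted p = 1.7e-04 in edgeR), RBBP4 (-0.37, 0.00186) and BPTF (-0.40, 0.00206) were lower, while the ATPase SMARCA1 (0.69, 4.4e-04) and BAZ2B (0.32, 0.0338) were higher. Of 20 genes of the INO80, SRCAP and EP400 remodellers, 4 were lower and 2 higher, with a median of -0.01. The ATPases SRCAP (-1.25, 1.6e-04) and EP400 (-0.62, 5.4e-04) and the subunit INO80D (-0.74, 7.5e-04) were lower, and ZNHIT1 (0.52, 0.00323) and DMAP1 (0.22, 0.0241) were higher. After the length correction the median of the ISWI genes was -0.02 with 3 lower. That of the INO80, SRCAP and EP400 genes was -0.16 with 3 lower, beside -0.23 with 6 lower for the 10 SWI/SNF genes. In that fit 16.7% of all tested genes were lower. BAZ1B was then at -0.25 and EP400 at -0.34, and INO80D and DMAP1 no longer passed. Of 10 genes of Polycomb repressive complex 2, which places a repressive histone mark that SWI/SNF is known to oppose, SUZ12 was lower (-0.43, 0.00406), PHF19 was higher (0.48, 0.00104) and 8 did not pass. The median of these Polycomb genes was -0.05 both with and without the length correction.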
